A study of Mus musculus with 4 samples.

Results

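The genes described here are 34 nuclear receptors of mouse inguinal white adipose tissue (iWAT): Nr1d1, Nr1d2, Rora, Rorb, Nr1h2, Nr1h3, Nr1h4, Vdr, Nr1i2, Nr1i3, Hnf4a, Hnf4g, Nr2c1, Nr2c2, Nr2e1, Nr2e3, Nr2f1, Nr2f2, Nr2f6, Esr1, Esr2, Nr3c2, Pgr, Nr4a1, Nr4a2, Nr4a3, Nr5a1, Nr5a2, Nr6a1, Nr0b1, Nr0b2, Rara, Rarb and Rarg. They were listed by name and not picked by a rule on their values, but earlier results of these data were known when the list was made. Each gene was given every peak of open chromatin on its body or the 2000 bases upstream, on the GRCm38 (mm10) genome. Of the 21911 protein-coding genes in the annotation, 17173 had a peak, and so did 31 of the 34 receptors. Hnf4g, Nr0b1 and Nr0b2 had none and could not be measured.

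Chromatin accessibility was measured with snATAC-seq, in which a transposase cuts open DNA in single nuclei, in 32552 nuclei of iWAT from 21 male C57BL/6 mice aged 8 weeks. The day 0 group was kept at room temperature (RT, 22 °C). The other groups spent 1, 3 or 7 days in the cold (6.5 °C) or received CL-316,243 (CL, 1 mg/kg), an agonist selective for the β3-adrenergic receptor, for the same times, with 3 mice in each of 7 groups. No mouse carried a transgene or a deletion, and all treated groups are set against the same 3 day 0 mice. The sequenced libraries were lanes that pooled all mice, so the mouse, the group and the cell cluster of each nucleus are those of the authors' deposited annotation, with 12 clusters. Each mouse had 1111 to 2021 nuclei and 1340376 to 6916698 counts, and the median count per nucleus ran from 762 after 1 day of CL to 1584.5 after 3 days of cold. A count here is 1 nucleus with a read in 1 peak.

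Nuclear receptors are transcription factors that bind DNA through paired zinc fingers, mostly at copies of the half-site AGGTCA, and many are switched by a lipid-soluble ligand such as a steroid, retinoic acid, an oxysterol or a bile acid. Others, the orphan receptors, have no firmly known ligand and act through their amount or through the coregulators they recruit. In adipose tissue, members of the family are known for roles in lipid handling, daily rhythm, sex hormone response and the response of fat cells to adrenergic signals.

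In the cluster annotated as VSMC (vascular smooth muscle cells), 4 of 4 skeletal muscle markers had peaks and summed to 945 ± 121 CPM (SD, n = 10 mice), against 100 ± 64.0 for smooth muscle markers. It is called the VSMC-annotated cluster here. CPM are counts scaled to a total of 1000000 counts on genes in each library. In APC2, an adipocyte progenitor cluster, smooth muscle markers summed to 414 ± 81.7 CPM, against 123 ± 62.6 in APC1, the other progenitor cluster. The beige markers summed to 598 ± 137 CPM in the beige cluster (n = 19 mice) and 190 ± 40.3 in white adipocytes (n = 21). After removal of the mouse suffix, 4218 barcodes occurred in more than 1 mouse. All 4824 pairs of nuclei that shared one were from mice of the same treatment and number on different days, and 21.5% of these pairs fell in the same cluster, where the cluster sizes alone give 20.7%.

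The receptor genes held 388 of the 189598 peaks. Of these, 307 lay in introns, 41 in exons, 31 at a transcript start and 9 upstream. Rora, which activates the same target sites that Nr1d1 and Nr1d2 repress, held 133 peaks on its 734461 bases of chromosome 9. Esr1, the estrogen receptor α gene, held 45 peaks on chromosome 10, and Rarb, a retinoic acid receptor gene, 31 on chromosome 14. Because counts add up over a gene's peaks, levels are compared between genes only per kb of gene region. On that scale Nr1d1 was highest in white adipocytes, at 18.0 CPM per kb, ahead of Nr2f2 at 7.08 and Nr1h3 at 6.49, while Rora stood at 1.05 and Rarb at 0.336. The Nr1d1 region spans 9.4 kb and that of Rora 736 kb. Of the 5 peaks each of Nr1d1 and Nr1h3, 1 and 2 also count for another gene.

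The sequences shown are the promoter of Rarb and the middle 201 bases of intron peaks of Rarb, Esr1 and Nr4a1, whose accessibility differed between beige and white adipocytes. They were chosen after these values were seen. Capitals mark a match to the half-site AGGTCA, read as TGACCT from the other strand, or to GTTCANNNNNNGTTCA, the core of the kind of retinoic acid response element the Rarb promoter is known for. A sequence without capitals holds no match. The Rarb promoter is from RefSeq (GRCm38.p6, chr14:16575427-16575726, minus strand, 250 bases before to 50 after a gene start). The Rarb intron window is chr14:16497374-16497574 on the minus strand. Both Esr1 intron windows shown are on the plus strand, the first at chr10:4621293-4621493 and the second at chr10:4713631-4713831. Windows of the other Esr1 intron peaks that passed, not shown, held no match. The Nr4a1 intron window is chr15:101260554-101260754, plus strand.
Rarb promoter: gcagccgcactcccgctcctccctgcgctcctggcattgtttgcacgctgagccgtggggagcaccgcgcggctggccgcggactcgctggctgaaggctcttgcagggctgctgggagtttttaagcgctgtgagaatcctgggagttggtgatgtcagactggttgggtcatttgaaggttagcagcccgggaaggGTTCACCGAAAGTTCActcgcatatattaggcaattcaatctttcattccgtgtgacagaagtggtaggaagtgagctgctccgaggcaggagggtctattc
Rarb intron: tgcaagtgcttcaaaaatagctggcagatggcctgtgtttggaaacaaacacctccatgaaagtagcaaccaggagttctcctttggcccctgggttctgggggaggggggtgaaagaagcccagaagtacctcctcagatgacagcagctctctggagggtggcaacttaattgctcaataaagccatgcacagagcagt
Esr1 first intron window: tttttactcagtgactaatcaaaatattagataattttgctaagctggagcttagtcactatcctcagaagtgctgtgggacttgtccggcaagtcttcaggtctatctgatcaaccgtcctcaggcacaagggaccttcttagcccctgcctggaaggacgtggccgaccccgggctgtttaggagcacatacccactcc
Esr1 second intron window: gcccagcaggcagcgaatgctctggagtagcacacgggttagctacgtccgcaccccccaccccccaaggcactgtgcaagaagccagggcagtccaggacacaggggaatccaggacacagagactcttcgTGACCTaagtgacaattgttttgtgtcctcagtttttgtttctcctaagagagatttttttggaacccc
Nr4a1 intron: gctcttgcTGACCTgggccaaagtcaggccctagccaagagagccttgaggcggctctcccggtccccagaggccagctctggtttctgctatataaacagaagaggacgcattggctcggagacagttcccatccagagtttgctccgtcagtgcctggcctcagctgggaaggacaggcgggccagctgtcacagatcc

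The half-site AGGTCA, searched on both strands, was found in 113 of the 388 peaks of the receptors (29.1%) and in 29.9% of all peaks. Peak widths were alike, with a median of 394 bases for the receptors and 392 for all peaks. The longer motif AAAGGTCA, at which the NR4A receptors bind as monomers and which contains the half-site, was found in 10 of the 388 (2.58%), against 3.8% of all peaks. None of the 388 held the direct repeats AGGTCANAGGTCA, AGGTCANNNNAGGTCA or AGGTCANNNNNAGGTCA, the inverted repeat AGGTCANNNTGACCT or the ROR site AANTAGGTCA, which occurred in 0.137%, 0.035%, 0.025%, 0.014% and 0.631% of all peaks in that order. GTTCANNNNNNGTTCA, a motif added after the data had been seen, was found in 3 of the 388 (0.773%), on Rora, Esr1 and Rarb, and in 0.1% of all peaks. The Rarb match lay at chr14:16575513-16575528, inside the peak at the transcript start. The Esr1 match lay at chr10:4694656-4694671, inside the intron peak chr10:4694174-4694959. That peak also held a half-site at chr10:4694465-4694470, and the Esr1 intron peak chr10:4727052-4727633 held one at chr10:4727490-4727495. Both peaks passed between beige and white adipocytes. These Esr1 matches lay partly or wholly outside the middle 201 bases, so the windows of these peaks held no match. In RefSeq's promoters 32 receptors had an entry. The half-site was in 6 of the 41 entries of receptors with peaks (14.6%) and in 16.3% of all 32851 promoters, and the GTTCA repeat in 1 of 41 (2.44%) and 0.076%.

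**Figure D1:**
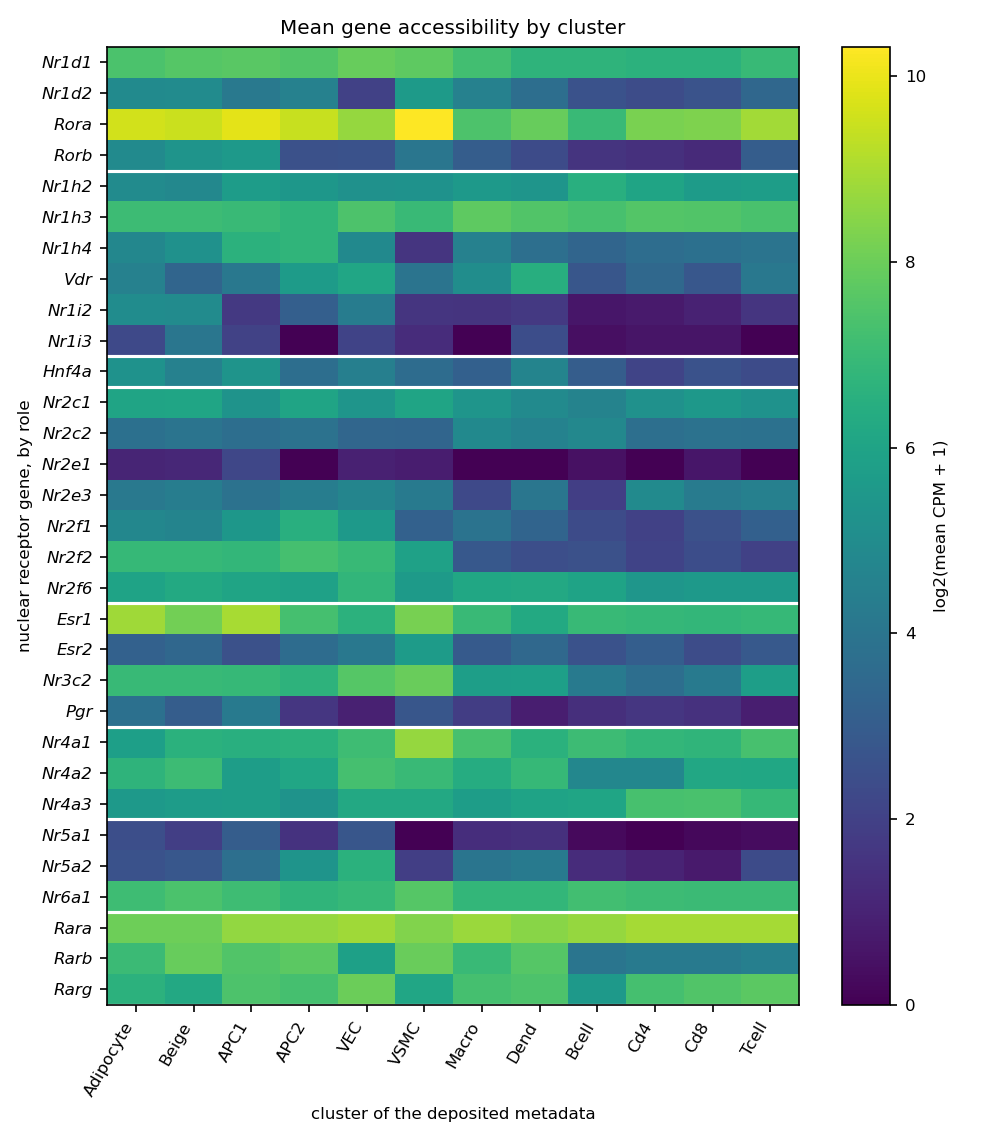
Mean accessibility of each receptor gene (rows) in each cluster (columns), as log2(mean CPM + 1) on the color bar, with white lines between role groups. The VSMC-annotated cluster is highest for Rora, Nr4a1 and Nr3c2, while Nr2f2 is low in every immune cluster.

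The receptors differed in how their accessibility was spread over the clusters. Nr2f2, an orphan receptor known from veins and mesenchyme, was at 119 ± 20.2 CPM in white adipocytes (SD, n = 21), 119 ± 16.1 in beige (n = 19), 111 ± 44.7 in APC1 (n = 20), 152 ± 50.4 in APC2 (n = 19) and 121 ± 70.8 in vascular endothelial cells (VEC, n = 15). In B cells it was at 4.91 ± 9.94 CPM and in macrophages at 6.20 ± 9.85 (n = 21 each). Among the stromal and fat clusters the Nr2f2 ranges overlapped. Nr1i2, a xenobiotic receptor, was at 31.0 ± 4.52 CPM in white and 30.2 ± 17.2 in beige adipocytes, and the next was VEC at 19.3 ± 40.2 with 10 of 15 mice at 0. Nr5a2, an orphan receptor of the liver and ovary, was highest in VEC at 94.3 ± 40.5 CPM, higher than in APC2 in 12 of 13 mice with both.

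Nr4a1, an orphan receptor whose gene is switched on within minutes by cAMP signals, was highest in the VSMC-annotated cluster at 411 ± 109 CPM (n = 10). This was the 1 top level whose range over mice did not overlap that of the next cluster, with 9 mice in both. The share of all genes with such a gap was not counted. Rora was also highest there, at 1274 ± 290 CPM, then in APC1 at 949 ± 236, white adipocytes at 772 ± 101, beige at 722 ± 126 and APC2 at 708 ± 133, and lowest in B cells at 127 ± 41.5. Rora was higher in the VSMC-annotated cluster than in APC1 in 7 of 10 mice, so those neighbors were not separated. Of the 133 Rora peaks, 36 had their highest mean in the VSMC-annotated cluster, 27 in APC1 and 17 in APC2. These peaks held 22 to 1260 counts each, and the share of all peaks highest in each cluster was not counted. Vdr, the vitamin D receptor gene, was highest in dendritic cells at 88.7 ± 38.6 CPM and did not separate from VEC at 68.6 ± 68.4. Nr1h4, the bile acid receptor FXR, was highest in APC2 at 107 ± 57.9 CPM and APC1 at 98.8 ± 63.4, higher in APC2 in 9 of 18 mice. Nr1h2, the ubiquitous liver X receptor, was highest in B cells at 89.7 ± 16.1 CPM and higher there than in the Cd4 cluster in 18 of 20 mice.

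Nr1i3, Nr5a1, Nr5a2 and Nr2e1 had peaks but were near the floor in white adipocytes, Nr1i3 at 3.83 ± 2.50 CPM, Nr5a1 at 4.57, Nr5a2 at 5.01 ± 3.34 and Nr2e1 at 1.09. Nr1i3, a xenobiotic receptor of the liver, was at 15.5 ± 12.6 CPM in beige adipocytes, where 4 of 19 mice were at 0. It rested on 65 counts in beige and 82 in white nuclei and did not pass the count filter, so it was not tested. Esr2, the estrogen receptor β gene, was at 8.11 CPM in white adipocytes and highest in the VSMC-annotated cluster at 50.0 ± 51.3 on 30 counts.

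The first comparison was between beige and white adipocytes, the fat cells that do and do not carry the thermogenic program. Rarb showed the largest excess of the tested receptors in beige cells, a log2 difference of 0.86, and Esr1 the largest deficit, -0.76. Nr4a1, Nr1h4, Nr2f6 and Nr6a1 were also more open in beige cells, and Hnf4a, Rarg and Rora less open. In all, 9 of the 22 receptors tested passed at an adjusted p of 0.05, 5 higher and 4 lower, where 28.8% of all 12751 genes did. The median log2 difference of the 22 was 0.05, and that of all genes 0.00. The test was edgeR's quasi-likelihood test with treatment group as a covariate and Benjamini-Hochberg adjustment over all genes, on libraries of 12 to 107 beige and 23 to 847 white nuclei. The authors made the clusters from these same peaks, so p-values between clusters are not independent of the clustering.

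**Figure D2:**
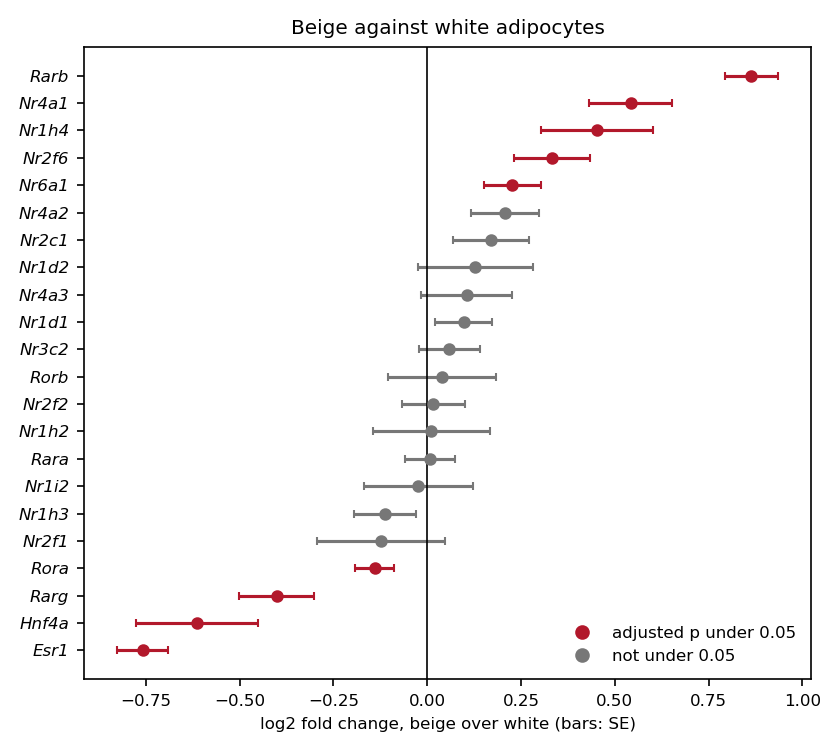
Log2 difference in accessibility, beige minus white adipocytes, for the 22 receptors tested. Points are estimates, bars the SE, and red marks an adjusted p under 0.05. Rarb at 0.86 and Esr1 at -0.76 lie farthest from 0 on either side.

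Among the retinoic acid receptors, Rarb was at 241 ± 57.7 CPM in beige (n = 19 mice) and 131 ± 25.0 in white adipocytes (n = 21). Its lowest, median and highest beige libraries were at 111, 241 and 360 CPM, and the white ones at 85.8, 127 and 203. These ranges overlapped, but within mice Rarb was higher in beige in 18 of 19. The log2 difference was 0.86 with an SE of 0.07 (edgeR, adjusted p = 1.09e-20). Rarg, the retinoic acid receptor best known from skin, went the other way, from 97.2 ± 22.8 CPM in white to 73.9 ± 23.4 in beige, lower in 16 of 19 mice (log2 difference -0.40, SE 0.10, adjusted p = 0.000503). Rara, the widely used member, was at 264 ± 32.2 CPM in white and 258 ± 66.5 in beige, with a 95% interval of the log2 difference from -0.12 to 0.14.

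Of the steroid receptors, Esr1 was at 458 ± 60.5 CPM in white and 274 ± 70.4 in beige adipocytes. White libraries ran from 364 over a median of 458 to 583 CPM and beige libraries from 173 over 271 to 436. Beige was lower in 18 of 19 mice, with 1 exception at day 0. The log2 difference was -0.76 with an SE of 0.07 (edgeR, adjusted p = 2.29e-18). Nr3c2, the mineralocorticoid receptor gene, was at 121 ± 14.0 and 123 ± 35.3 CPM in white and beige, with an interval from -0.10 to 0.22. Esr2 and Pgr, the progesterone receptor gene, did not pass the count filter.

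Of the NR4A receptors, Nr4a1 was at 96.5 ± 50.8 CPM in beige and 56.0 ± 11.1 in white adipocytes, a log2 difference of 0.54 with an SE of 0.11 (edgeR, adjusted p = 1.16e-05). Beige was higher in 13 of 19 mice. After 7 days of CL, beige was higher in 0 of 3 mice, at 57.6, 58.3 and 56.3 CPM, and the 3 beige libraries after 1 day of cold were at 106, 173 and 160. The highest beige library, 257 CPM, was of a day 0 mouse. Nr4a2, which also answers to cAMP, had a log2 difference of 0.21 and did not pass (adjusted p = 0.0624), and Nr4a3 one of 0.11 (adjusted p = 0.543).

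Of the receptors of bile acids and oxysterols, Nr1h4 was at 35.8 ± 18.9 CPM in beige and 26.2 ± 9.01 in white adipocytes, higher in 12 of 19 mice (log2 difference 0.45, SE 0.15, adjusted p = 0.00529). Nr1h3, the liver X receptor α gene, was at 132 ± 43.2 and 135 ± 19.5 CPM and did not pass (adjusted p = 0.321). Hnf4a, a master factor of liver cells, was at 22.3 ± 16.8 CPM in beige and 37.5 ± 13.4 in white, lower in 17 of 19 mice (log2 difference -0.61, SE 0.16, adjusted p = 0.000417). Its beige level rested on 85 counts, with 4 of 19 mice at 0.

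Of the remaining orphan receptors, Nr2f6 was at 75.7 ± 20.6 CPM in beige and 63.1 ± 26.8 in white adipocytes, higher in 17 of 19 mice (log2 difference 0.33, SE 0.10, adjusted p = 0.00434). Nr6a1, a germ cell factor, was higher in beige in 15 of 19 mice (log2 difference 0.23, SE 0.08, adjusted p = 0.0132), a call lost without mouse 1 of day 1 cold (0.0505) or mouse 1 of day 7 CL (0.0758). Nr2f2 had a log2 difference of 0.02 with an interval from -0.15 to 0.18. Of the clock receptors, Rora was lower in beige in 15 of 19 mice (log2 difference -0.14, SE 0.05, adjusted p = 0.0298), a call lost without mouse 3 of day 1 cold (0.0502) or mouse 3 of day 7 cold (0.0583), and when libraries needed 30 nuclei (0.0593). Nr1d1, a repressor of the molecular clock, was at 190 ± 56.6 and 170 ± 33.5 CPM in beige and white and did not pass (adjusted p = 0.363). A further fit used only peaks within 2000 bases of the start of the gene model, which leaves out starts inside a gene such as those of Rarb and Nr4a1. There 2 of 14 receptors tested passed, and 1089 of all 9439 genes tested. Nr4a1 was then at a log2 difference of 0.08 (adjusted p = 0.891).

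Single peaks were tested the same way. Of the receptors' 388 peaks 51 had counts enough, and 17 passed, 6 higher and 11 lower in beige, where 27.2% of all 24854 peaks tested did. With the mouse as a block 26 of 82 tested passed, where 9751 of all 34063 peaks tested did. With the low-count filter by cluster, the first one used, 5 of 28 tested passed, where 1786 of all 10991 did. Rarb held the largest change, an intron peak at chr14:16497191-16497758, 78069 bases from the nearest transcript start, at 17.8 ± 12.0 peak CPM (scaled to all peak counts of the library) in beige and 2.92 ± 1.92 in white adipocytes (log2 difference 1.83, SE 0.27, adjusted p = 3.01e-17). The middle of that peak is the Rarb intron sequence above. That peak was low in white adipocytes and passed the low-count filter only through beige libraries, where it is high. Its adjusted p and its rank as the largest change are therefore not free of that selection. It was not among those tested with the low-count filter by cluster. Its call was kept in the 4 other settings that tested it, on the same mice. The Rarb peak at a transcript start inside the gene, chr14:16574883-16575940, which holds the GTTCA repeat, was at 29.7 ± 11.4 and 16.5 ± 5.33 (log2 difference 0.67, SE 0.15, adjusted p = 1.47e-05). Tested or not, 28 of the 31 Rarb peaks had the higher mean in beige.

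Esr1 held 8 of the peaks that passed, all lower in beige, out of 9 tested, and 41 of its 45 peaks had the lower mean there. Of all peaks that passed, 3180 were higher and 3572 lower in beige. With the low-count filter by cluster, of the 8 Esr1 peaks only the one that starts at chr10:4711947 was tested, and it did not pass (adjusted p = 0.141). Its call was also lost with DESeq2 (0.0866) and in 10 of 21 fits without 1 mouse. The peak at chr10:4620883-4621904, source of the first Esr1 sequence above, was at 21.4 ± 5.93 peak CPM in white and 10.2 ± 8.49 in beige adipocytes (log2 difference -0.82, SE 0.19, adjusted p = 1.25e-05). The peak at chr10:4727052-4727633 had a log2 difference of -0.80 (adjusted p = 8.16e-05) and the one at chr10:4694174-4694959 one of -0.70 (0.000278). The peak at the Esr1 transcript start, chr10:4611784-4613136, had one of -0.62 (0.00242), and the peak that gave the second Esr1 sequence, chr10:4713370-4714092, one of -0.59 (0.00213). By mean level the lower values were spread over the gene and not those of 1 peak, while the calls depended on the low-count filter.

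Nr4a1 had an intron peak (chr15:101260161-101261148, the Nr4a1 sequence above) and a peak at a transcript start inside the gene (chr15:101266270-101267408) that passed, with log2 differences of 0.40 (adjusted p = 0.0222) and 0.65 (0.00167). Both are most open in the VSMC-annotated cluster. The intron peak did not pass with the mouse as a block (adjusted p = 0.0678) or without any 1 of 3 mice (0.0536 to 0.0804). Without the low-count filter neither Nr4a1 peak passed, the intron peak at 0.15 (adjusted p = 0.520) and the start peak at 0.39 (0.0950). Nr4a2 had 1 of its transcript start peaks, chr2:57114276-57115389, higher in beige (log2 difference 0.44, adjusted p = 0.0120, and 0.0691 without mouse 3 of day 1 CL), while the other, chr2:57123350-57124535, did not pass (-0.08, adjusted p = 0.713). The call of the first Nr4a2 peak was also lost without the low-count filter (0.16, adjusted p = 0.471). The Rarg start peak at chr15:102245790-102248175 was lower in beige (log2 difference -0.45, adjusted p = 0.000804), and so was the Rora start peak at chr9:69289355-69290088 (-0.41, adjusted p = 0.0271). The Rora call was lost with DESeq2 (0.0570), with the low-count filter by cluster (0.0903) and without any 1 of 3 mice (0.0533 to 0.0672). An intron peak of Rara at chr11:98964838-98965222 was higher (0.52, adjusted p = 0.0287). The Rara call was lost with the mouse as a block (0.0510), without the low-count filter (0.275) and without any 1 of 4 mice (0.0553 to 0.0728). A peak listed for Nr1h3, chr2:91182216-91184275, was lower (-0.48, adjusted p = 0.00523) and also overlaps Madd, so the genes cannot be told apart there.

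**Figure D3:**
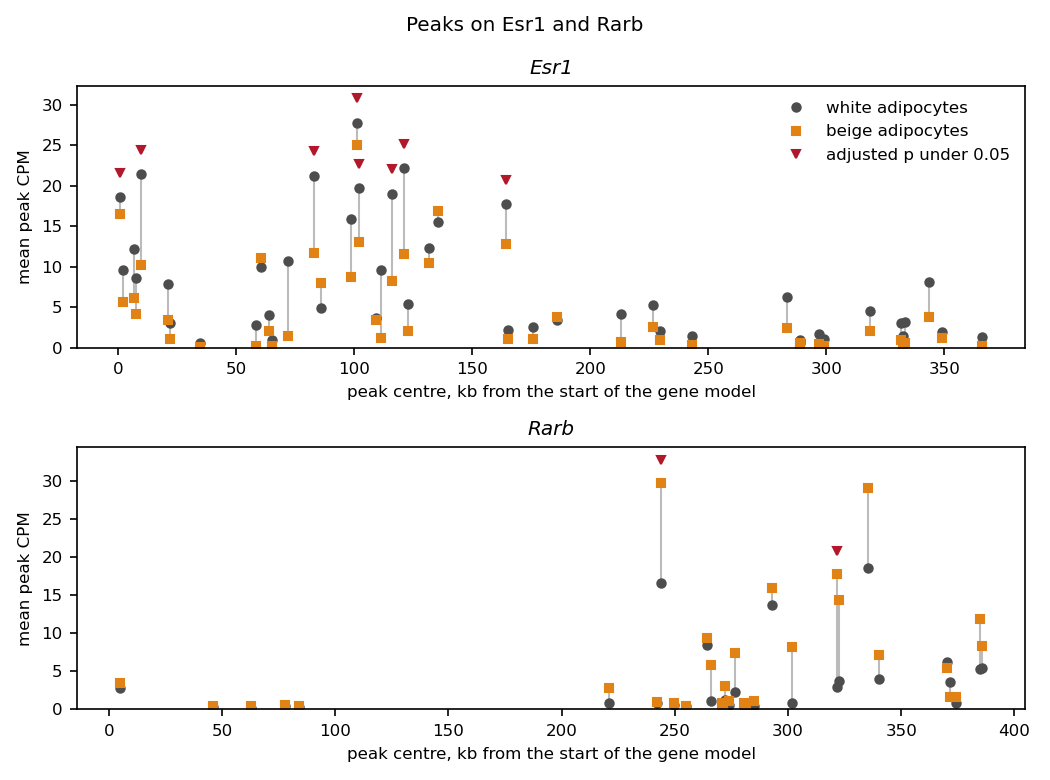
Mean accessibility of each Esr1 and Rarb peak (peak CPM) in white and beige adipocytes, against the distance of the peak's centre from the start of the gene model in kb, with triangles over peaks that passed. Beige squares lie below white circles at 41 of 45 Esr1 peaks and above them at 28 of 31 Rarb peaks.

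The second comparison asked how adipocytes, white and beige summed per mouse, changed from day 0 under cold or CL. Rarb rose in 3 of the 6 treated groups, Rarg fell at day 7 of either treatment, and Esr1, Nr1h4 and Nr2c2 each rose in 1 group. Of the 27 receptors tested, the number that passed was 0 on day 1 of cold (0.34% of all 14408 genes passed), 1 on day 3 (1.67%) and 2 on day 7 (5.02%). Days 1, 3 and 7 of CL gave 1 (2.58%), 1 (4.77%) and 3 (7.73%). These 8 calls come from 162 tests over 6 groups that share the day 0 mice. On day 1 of cold 1 receptor had an unadjusted p under 0.05 by edgeR, and DESeq2 called none. Of the 8 calls by edgeR, DESeq2 gave those of Rarb on day 7 of cold and of CL and no other. It gave no adjusted p for Nr1h4 on day 1 of CL or Nr2c2 on day 7 of CL.

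**Figure D4:**
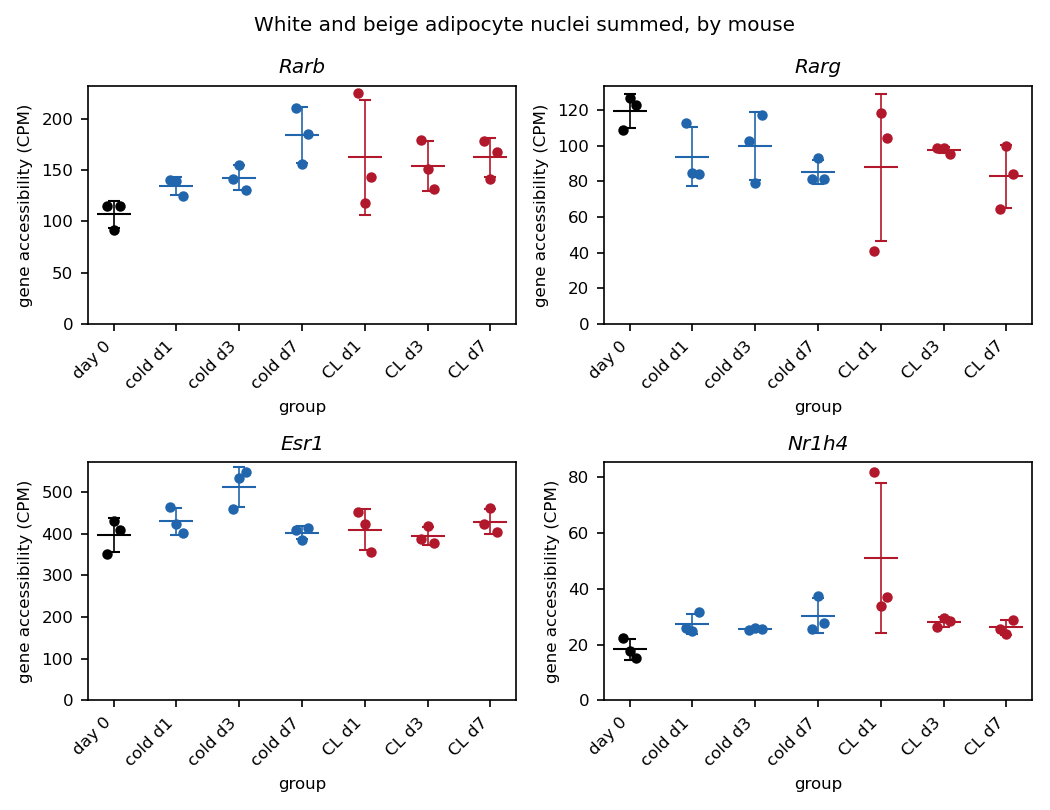
Accessibility of Rarb, Rarg, Esr1 and Nr1h4 in adipocytes (white and beige nuclei summed) in CPM, by group. Points are mice, lines the mean and bars the SD (n = 3). The Rarb values of all day 7 mice, 142 to 211 CPM, lie above those of the day 0 mice, 91.5 to 115.

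Rarb was at 115, 91.5 and 115 CPM in adipocytes of the day 0 mice. After 7 days of cold it was at 211, 156 and 185 CPM, a log2 change of 0.75 with an SE of 0.14 (edgeR, adjusted p = 0.000212). After 7 days of CL it was at 179, 142 and 168 CPM, a change of 0.59 with an SE of 0.14 (adjusted p = 0.0030). Every day 7 mouse was above every day 0 mouse. On day 3 of CL it was at 180, 151 and 132 CPM (log2 change 0.44, SE 0.14, adjusted p = 0.0474), a call lost in 12 of the 21 fits that left out 1 mouse. On days 1 and 3 of cold the changes were 0.29 and 0.36 and did not pass (adjusted p = 0.552 and 0.201). On day 1 of CL Rarb was at 225, 118 and 144 CPM, and its change of 0.37 did not pass either (0.268).

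The share of adipocyte nuclei in the beige cluster also differed between groups. Its part in the Rarb changes was not tested. On day 1 the median share was 9.33% in the cold and 14.5% under CL, and on day 3 it was 13.2% and 9.22%. Its median was 7.72% at day 0, 29.7% on day 7 of cold and 22.1% on day 7 of CL, and the 4 beige markers summed to 172 to 179 CPM in adipocytes at day 0, 297 to 389 on day 7 of cold and 237 to 360 on day 7 of CL. In white adipocyte nuclei alone, Rarb was at 100, 85.8 and 100 CPM at day 0, 155, 121 and 140 on day 7 of cold and 159, 127 and 157 on day 7 of CL. The day 7 cold change of Rarb in white nuclei was 0.52 and did not pass (adjusted p = 0.0591). The CL changes in white nuclei passed, at 0.62 on day 7 (adjusted p = 0.00367) and 0.51 on day 3 (0.0218). Without mouse 1 of day 7 CL the day 7 CL change was 0.48 and did not pass (adjusted p = 0.112).

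Rarg fell by 0.49 on the log2 scale on day 7 of cold (SE 0.16, adjusted p = 0.0494), from 109, 127 and 123 CPM at day 0 to 81.4, 93.0 and 81.1. On day 7 of CL it was at 64.2, 100.0 and 83.9 CPM and fell by 0.61 (SE 0.15, adjusted p = 0.0054). No day 7 mouse of either treatment reached the lowest day 0 mouse. The CL call was lost without mouse 1 of day 7 CL (-0.34, adjusted p = 0.352) or mouse 3 of day 0 (0.0765), and the cold call in 9 of 21 such fits. In white nuclei alone the cold change of Rarg was -0.48 and did not pass (adjusted p = 0.136), while the CL change was -0.59 and passed (0.0120).

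Esr1 was at 350, 429 and 409 CPM at day 0 and 458, 532 and 547 on day 3 of cold, a log2 change of 0.35 with an SE of 0.10 (adjusted p = 0.0485). The groups did not overlap, but the call was lost in 12 of 21 fits without 1 mouse, up to an adjusted p of 0.266 without mouse 1 of day 0. In white nuclei alone the Esr1 change was 0.44 and passed (adjusted p = 0.0133), and with DESeq2 it did not (0.0613). Nr1h4 was at 22.5, 17.6 and 15.0 CPM at day 0 and 82.0, 33.8 and 37.2 on day 1 of CL (log2 change 1.02, SE 0.30, adjusted p = 0.0260). The adipocyte library of mouse 1 held 29 nuclei and 48787 counts. The call was lost without mouse 3 of day 1 CL (0.524) or mouse 2 or 3 of day 0 (0.0536 and 0.262), and in white nuclei alone (0.211). Nr2c2, an orphan receptor that competes for direct repeats, was at 6.14, 10.6 and 9.26 CPM at day 0 and 20.8, 20.8 and 16.8 on day 7 of CL (log2 change 1.09, SE 0.39, adjusted p = 0.0324), a call lost without mouse 1 of day 7 CL (0.212) or any 1 of the day 0 mice (0.0551 to 0.152), and in white nuclei alone (0.114).

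No other receptor passed in any treated group. Nr4a1, whose gene responds to β-adrenergic signals in fat, was at 90.1, 80.9 and 57.9 CPM at day 0 and 55.4, 59.6 and 54.0 on day 1 of cold, a log2 difference of -0.35 (adjusted p = 0.549). Nr1d1 was at 227, 183 and 164 CPM at day 0 and 146, 150 and 171 on day 7 of CL, and its difference of -0.29 did not pass (adjusted p = 0.153). Nr2f2 differed from day 0 by -0.12 to 0.17 on the log2 scale over the 6 groups.

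Cold and CL were compared on the same day. On day 1 none of the 27 receptors passed (0.916% of all genes did), 2 had an unadjusted p under 0.05, and DESeq2 called none. On day 3 only Esr1 passed (1.46% of all genes), at 388, 419 and 378 CPM under CL and 458, 532 and 547 in the cold (log2 difference -0.33, SE 0.09, adjusted p = 0.0415). This call was lost without any 1 of the 3 CL mice or without mouse 2 or 3 of the cold group, with adjusted p from 0.0607 to 0.248, and with DESeq2 (0.165). In white nuclei alone it passed (-0.41, adjusted p = 0.00554), at 402, 432 and 383 CPM under CL and 492, 581 and 583 in the cold. On day 7 none passed (0.111% of all genes), 3 had an unadjusted p under 0.05, and DESeq2 called none. Rarb differed between CL and cold by 0.08, 0.09 and -0.15 on days 1, 3 and 7 (adjusted p = 0.896, 0.847 and 0.782).

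The third set of comparisons was between related cell types. White adipocytes were set against APC1, a cluster annotated as adipocyte progenitors. Of 19 receptors tested 10 passed, 2 higher and 8 lower in adipocytes, where 55.7% of all 9281 genes passed. Nr1h4 had the largest difference, at 26.2 ± 9.01 CPM in adipocytes and 98.8 ± 63.4 in APC1 (n = 20), a log2 difference of -1.90 with an SE of 0.17. It was lower in adipocytes in 16 of 20 mice. Nr4a2 and Nr2c1 were higher in adipocytes, by 0.70 and 0.66 on the log2 scale, in 17 and 16 of 20 mice. All 3 retinoic acid receptors were lower in adipocytes, with log2 differences of -0.48 for Rarg, -0.37 for Rara and -0.34 for Rarb. Rorb, Nr1h2, Nr2f1 and Nr4a1 were lower too, at -0.50, -0.49, -0.54 and -0.44. With the mouse as a block the calls of Nr1h2 (adjusted p = 0.0538) and Rarb (0.0515) were lost. Nr1h2 was lost in 10 of 21 fits without 1 mouse, down to -0.28 without mouse 1 of day 3 cold, Rorb in 5, down to -0.31 without mouse 3 of day 1 CL, and Rarb in 3, down to -0.20 without that same mouse. Nr2f1 was lost in 2 such fits and Nr4a1 in 1. Nr1h4, Nr4a2, Nr2c1, Rara and Rarg passed in all 21. Without the low-count filter the calls of Nr1h2 (adjusted p = 0.120), Nr2f1 (0.0628), Rarb (0.131), Nr4a1 (0.0724) and Rorb (0.0984) were lost. In nuclei with at least 2000 counts those of Nr1h2 (0.142), Nr4a1 (0.0724) and Rorb (0.103) were lost. With peaks near the start of the gene model alone, 0 of 8 receptors passed by edgeR, where 1596 of all 5667 genes tested did. The 4 lymph node stroma markers summed to 144 ± 54.1 CPM in APC1 and 188 ± 67.2 in APC2, against 10.2 ± 6.24 in white adipocytes, with Ccl21a at 0 in APC1. Their part in these differences was not tested.

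Between the progenitor clusters, Esr1 was at 496 ± 134 CPM in APC1 (n = 20) and 156 ± 65.5 in APC2 (n = 19), higher in 17 of 18 mice with both (log2 difference 1.57, SE 0.14). The lowest, median and highest APC1 libraries were at 216, 533 and 669 CPM and those of APC2 at 0, 146 and 244, so the groups overlapped little. Rora was higher in APC1 as well, by 0.43 in 15 of 18 mice, a call lost when libraries needed 30 nuclei (0.325). These were 2 of the 6 receptors tested, where 62.3% of all 1677 genes passed. Smooth muscle markers also differed between these clusters, as given above, and their part in the Esr1 difference was not tested.

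Macrophages and dendritic cells differed in 6 of 8 receptors tested, against 51.3% of all 2320 genes. Rarb was lower in macrophages, at 125 ± 35.2 CPM against 192 ± 69.4 in dendritic cells (log2 difference -0.64, SE 0.15), and so was Rora (-0.45). Nr1d1, Nr4a1, Rara and Esr1 were higher in macrophages, by 0.57, 0.43, 0.37 and 0.40. The Esr1 call (adjusted p = 0.0449) was the weakest and was lost with the mouse as a block (0.0933) and in 12 of 21 fits without 1 mouse. Rora and Nr4a1 did not pass when libraries needed 30 nuclei (0.340 and 0.188), and Nr4a1 came to -0.011 in nuclei with at least 2000 counts. In those nuclei the calls of Nr1d1 (adjusted p = 0.0940), Rara (0.369), Rora (0.0798) and Esr1 (0.516) were lost as well.

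Between B and T cells 14 of 17 receptors passed the threshold, 4 higher and 10 lower in B cells, where 64.0% of all 11995 genes passed. The median absolute log2 difference over the 11995 genes tested was 0.249. It was 0.316 over the 2320 tested between macrophages and dendritic cells and 0.402 over the 1677 tested between APC1 and APC2. The gene sets and library depths differ, so these medians do not rank the pairs. Rarg was at 45.9 ± 10.1 CPM in B cells and 184 ± 38.7 in T cells, and Rora at 127 ± 41.5 and 363 ± 125 (n = 21 each). Rarg was lower in B cells in 21 of 21 mice (log2 difference -1.86, SE 0.06) and so was Rora (-1.43, SE 0.05). The Rarg ranges did not overlap, from 22.9 to 64.4 in B cells and from 138 to 326 in T cells. Nr4a3 was at 66.8 ± 11.1 and 152 ± 31.0 CPM, again lower in 21 of 21 mice (-1.08), and Nr4a2 was lower in 20 of 21 (-0.83). Nr4a1 was instead higher in B cells, by 0.23 in 16 of 21 mice. Nr2e3, a photoreceptor factor, was at 2.77 ± 2.38 and 24.0 ± 10.7 CPM (-2.27). Nr2c2, Nr1h2 and Nr2f6 were higher in B cells, by 0.76, 0.70 and 0.45. Nr2c1, Nr3c2, Rarb, Rara and Nr1h3 were lower, at -0.64, -0.48, -0.37, -0.22 and -0.18. The Rarb call (edgeR, adjusted p = 0.0104) was lost without mouse 3 of day 7 cold (0.0960).

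**Figure D5:**
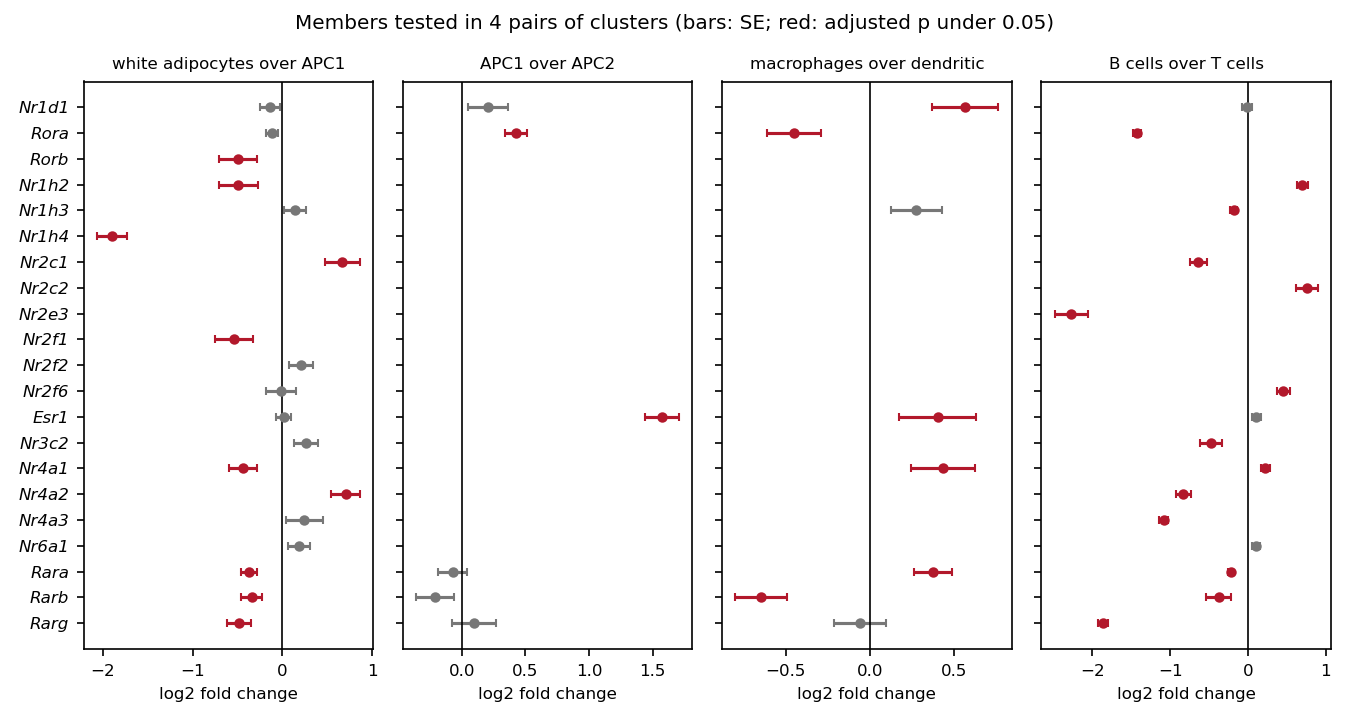
Log2 differences of the receptors in the 4 further pairs of clusters, with SE bars, red where the adjusted p is under 0.05 and no point where a receptor was not tested. Rarg, Rora and Nr2e3 lie lowest in B against T cells, Nr1h4 lowest in white adipocytes against APC1, and Esr1 highest in APC1 against APC2.

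In immune cells, no receptor passed when all treated groups were tested against day 0 together. In B cells it was 0 of 16 by edgeR, where 2.16% of all 11485 genes passed, with 2 receptors at an unadjusted p under 0.05 (Nr4a1, adjusted p = 0.0796, and Rarb, 0.0977) and 0 called by DESeq2. In macrophages it was 0 of 9 by edgeR, where 0.0% of all 3549 genes passed, with 0 at an unadjusted p under 0.05 and 0 called by DESeq2.

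The genes that work with these receptors were counted in the same fits, as lists of names made with earlier results of these data known. Between beige and white adipocytes 28.8% of all genes passed, and each list count below is to be read beside that share. Of 12 coregulators, 4 of 12 tested passed there, median log2 difference 0.04. Nrip1, a corepressor of energy use genes in fat, was lower in beige (-0.62) and Tbl1xr1, a corepressor subunit, higher (0.47). Of the retinoid pathway, 2 of 6 passed, both lower in beige: Aldh1a1, which makes retinoic acid (-0.59), and Rbp4, the plasma retinol carrier (-0.86). Rdh10, the enzyme that starts retinoic acid synthesis, rose in adipocytes by 1.11 on day 7 of cold (adjusted p = 0.00132), by 1.34 on day 1 of CL (0.00048) and by 0.77 on day 7 of CL (0.0296), none of them called by DESeq2. Of the oxysterol pathway, 4 of 8 passed, with Scd1 (-0.57) and Abca1 (-0.21), both targets of the liver X receptors, lower in beige and Cyp27a1, which makes an oxysterol, higher (0.54).

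In the steroid and vitamin D pathway 4 of 6 genes passed between beige and white adipocytes, where 28.8% of all genes did. Greb1, an estrogen target in other tissues, was higher in beige by 1.27 (adjusted p = 8.16e-18) where Esr1 was lower, and Fkbp5, a glucocorticoid target, was lower (-0.52). Of the immediate early and cAMP genes 1 of 9 passed (Junb, 0.28). Of the clock partners 0 of 10 passed by edgeR, with 1 at an unadjusted p under 0.05 and 0 called by DESeq2. Summed over the 6 treated groups in adipocytes, calls were 5 of 72 for coregulators, 3 of 36 for the retinoid pathway, 3 of 48 for the oxysterol pathway, 1 of 60 for clock partners, 1 of 54 for immediate early genes and 6 of 42 for the steroid and vitamin D pathway, beside 8 of 162 for the receptors. Over all genes it was 3186 of 86448 (3.69%). With DESeq2 the calls were 1 for coregulators, 2 for the steroid and vitamin D pathway, 2 for the receptors and 0 for each of the other 4 lists, and 915 over all genes.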

How the data were processed

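Nuclei of iWAT from 21 mice were profiled with snATAC-seq. By the labels and the study's methods, the authors aligned reads to mm10 with Bowtie2, filtered them with SAMtools, called peaks with MACS2, removed low-quality nuclei and doublets, and clustered with Signac. The deposited matrix of 189598 peaks by 32552 nuclei is binary, with 65588856 entries of 1, 145 stored zeros and 0 entries above 1, so the counts here are numbers of nuclei with reads in a peak. Such entries saturate at peaks open in most nuclei, where differences come out too small.

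Entries were summed per mouse and annotated cluster over the peaks of each GENCODE vM21 protein-coding gene (body and 2000 bases upstream, GRCm38). Of the peaks assigned to genes, 5.54% counted for more than 1 gene. Libraries under 10 nuclei were left out. Genes and peaks were tested with edgeR 4.0.16 in R 4.3.3 (quasi-likelihood, TMM, filterByExpr with a minimum count of 10), with two-sided tests and Benjamini-Hochberg adjustment over all genes or peaks of a comparison. DESeq2 1.42.0 was the other tool. Except in the tests of any treatment it ran with its default filters, which can leave a gene without an adjusted p. Levels and summaries were computed with Python 3.11.15, pandas 2.3.3 and numpy 2.4.6. The scripts were tested on simulated data. Adipocyte treatment contrasts came from 1 fit of all 7 groups, and cluster pairs had treatment as a covariate. Alternatives were a tool, a filter, peak subsets, nuclei per library, depth, a block for the mouse and leaving out each mouse.

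All 34 receptors are accounted for by role. A receptor that passed between beige and white adipocytes or in a treatment contrast of adipocytes is given full statistics. In the other cluster pairs it is given the log2 difference, only in places with the SE or adjusted p. Of other lists at most 4 genes with the smallest adjusted p are named. Peaks are named where they passed, at most 3 per direction and receptor, or lie at a gene start. The members and lists were chosen with earlier results of these data known. The low-count filter was first given the clusters and later, after calls had been seen, the model design, and both are given. Mouse numbers are shared by groups without marking a shared animal. Deviations of same-numbered mice from their group means had a median correlation of -0.002 (range -0.11 to 0.15, 63 pairs), against -0.0003 for other numbers. No pairing by number was seen in these values, which cannot exclude a shared batch. The study's reporting summary names 3 independent batches of the experiment, and the annotation does not say whether the numbers mark them. Between clusters of the same mouse the mouse does pair libraries. Intervals are at 95% and SDs are between mice. The 3 mice of a group are taken as separate animals from the annotation.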

Additional observations from a re-analysis of the deposited data

Results flagged for a closer look

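One result differed between treatments. Esr1 accessibility in adipocytes on day 3 was lower under CL than in the cold, with a log2 difference of -0.33 (edgeR, adjusted p = 0.0415 over all genes, n = 3 mice in each group), at 388, 419 and 378 CPM under CL and 458, 532 and 547 in the cold. All 3 CL mice were below all 3 cold mice. The call was lost with DESeq2 (adjusted p = 0.165), with peaks near gene starts only (0.873), and without any 1 of the CL mice or mouse 2 or 3 of the cold group (0.0607 to 0.248). The beige share of adipocyte nuclei on that day ranged from 8.33% to 21.0% under CL, with a median of 9.22%, and from 8.61% to 14.8% in the cold, with a median of 13.2%. In white adipocyte nuclei alone the difference was as large and passed (-0.41, adjusted p = 0.00554).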

How the results depend on the processing

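Counts below are receptors past the threshold, and the number tested changed with the setting. The 9 of 22 tested between beige and white adipocytes became 2 of 14 with peaks near gene starts only (within 2000 bases of the start of the gene model). Over all genes 1089 of 9439 passed there. Under the other settings with all mice 9 to 11 receptors passed. The 8 calls in treated adipocytes became 2 with DESeq2, which gave some of them no adjusted p, and 5 with peaks of 1 gene only. They became 0 with peaks near gene starts, where 17 receptors and not 27 were tested. They became 3 in nuclei with at least 2000 counts, 4 in white nuclei alone and 5 with the replicate number as a block. No pairing of mice by that number was seen. The 1 call between CL and cold became 0 with DESeq2 and 0 near gene starts, and stayed at 1 with the number block. White adipocytes against APC1 went from 10 of 19 tested to 0 of 8 near gene starts, where 1596 of 5667 genes passed. APC1 against APC2 went from 2 of 6 to 0 of 1 near gene starts (13 of 57 genes) and 8 of 31 without a filter (3335 of 17038). Macrophages against dendritic cells went from 6 of 8 to 1 of 1 near gene starts (48 of 182 genes). That pair gave 1 of 9 in nuclei with at least 2000 counts (989 of 3411 genes) and 2 of 4 with the filter by cluster (594 of 996). B cells under any treatment went from 0 of 16 to 1 of 31 without a filter, where 354 of 17110 genes passed. Peaks between beige and white went from 17 of 51 tested to 121 of 388 without a filter, where 44231 of all 189546 peaks passed. They went to 26 of 82 with the mouse as a replicate block and 5 of 28 with the filter by cluster. The filter by cluster was the first one used, and the filter by the model behind the reported calls was adopted after those first calls had been seen. The filter by cluster was listed as an alternative after seeing the data. With the mouse as a block the cluster pairs gave 11, 9, 3, 6 and 16 receptors of 26, 24, 10, 10 and 19 tested. The reported fits gave 9, 10, 2, 6 and 14 of 22, 19, 6, 8 and 17. Calls that the mouse block ended are given beside their results. The causes were not tested.

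Leaving out 1 mouse at a time gave 8 to 11 calls for beige against white, 3 to 8 for treated adipocytes, 0 to 1 for CL against cold, 7 to 11 for white adipocytes against APC1, 2 to 3 for APC1 against APC2, 5 to 7 for macrophages against dendritic cells, 14 to 17 for B against T cells, 0 to 1 for B cells, 0 to 0 for macrophages under any treatment and 15 to 27 for peaks. The 27 came without mouse 3 of day 1 CL, and the treated count was 3 without day 0 mouse 2 or 3 and 4 without day 0 mouse 1. Of 1407 named values so recomputed 1300 kept their call, 107 lost it and 0 reversed, and of 436 under other settings 368 kept it and 66 lost it. Reversed were Nr4a1 between macrophages and dendritic cells, -0.011 in nuclei with at least 2000 counts, and Nr1h3 between B and T cells, 0.034 with peaks near gene starts.

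Over all genes, calls moved as well. In treated adipocytes the 49, 240 and 724 genes of days 1, 3 and 7 of cold became 9, 53 and 299 with DESeq2 and 0, 27 and 97 near gene starts, and the 372, 687 and 1114 of CL became 145, 175 and 234 and 77, 118 and 127. The 132, 210 and 16 between CL and cold became 11, 17 and 0 and 34, 69 and 0. In nuclei with at least 2000 counts 49 became 18, 240 became 152, 372 became 237, 132 became 68 and 16 became 32. The number block gave 25 for 49 and 32 for 16, and a fit of 2 groups 26 for 16. Near gene starts the cluster pairs fell from 3668 to 1089, 5165 to 1596, 1045 to 13, 1191 to 48 and 7677 to 4921. Without a filter 5165 became 7760, 1045 became 3335, 1191 became 2749, 0 macrophage genes became 3 and 6752 peaks became 44231. The filter by cluster gave 458 for 1045, 594 for 1191 and 1786 for 6752. B against T gave 4902 for 7677 in deep nuclei, and B cells under any treatment 44 for 248 with DESeq2. Libraries of few nuclei limit the precision, above all the 1 beige library after 1 day of CL and the APC, VEC and VSMC-annotated clusters. Where counts are low a difference was not detectable at this depth.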
